A study of Mus musculus with 9 samples.

Results

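Class I olfactory receptors (ORs) are the branch of the mouse OR family whose genes stand together on chromosome 7, and Olfr544 is one of them. They were chosen here by name, as the genes from Olfr543 to Olfr692 together with the Olfr genes numbered 33, 64, 65, 66, 67, 68, 69 and 78, a rule that uses no measured value. The rule found 143 of the 1248 OR genes in the deposited tables, which cover 23607 genes in all, and left 1105 other ORs for comparison. The data are RNAseq counts of mRNA recovered by immunoprecipitation of phosphorylated ribosomal protein S6 (pS6-IP) from the olfactory epithelium (OE) of 9 C57BL/6 mice. S6 becomes phosphorylated in an olfactory sensory neuron (OSN) that fires, so the mRNA of an OR whose OSNs are active is pulled down more. Control mice (n = 3) were exposed to distilled water, and the other groups to 1% heptanal (n = 3) or to 100% heptanal (n = 3), in every case for 1 hr. Heptanal is a straight-chain aliphatic aldehyde. All mice were of the same strain, with no transgene named, and each group held 1 mouse aged 22, 1 aged 21 and 1 aged 18 days after birth, which are called litters 1, 2 and 3 here because mice of 1 replication were littermates of the same sex.

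Each mature OSN expresses 1 OR allele and sends its axon to a glomerulus that collects the axons of OSNs with the same receptor. Class I ORs resemble the ORs of fish, and the OSNs that express them lie mostly in the dorsal part of the OE and project to the dorsal olfactory bulb. A remote enhancer, the J element, acts on the whole class I cluster, and the transcription factor Bcl11b takes part in the choice between the classes. Several class I ORs are known to respond to carboxylic acids and other aliphatic odorants. Olfr544 is known as a receptor for azelaic acid, Olfr78 and Olfr558 as receptors for short-chain fatty acids, and Olfr692 is known from neurons of the vomeronasal organ.

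In the GENCODE annotation of GRCm38, the build that mm10 names, all 143 members lie on chromosome 7 between positions 102476579 and 105369355, a stretch of 2893 kb that holds only 2 Olfr genes outside the rule. Olfr544 lies near the first end of the cluster on the minus strand, at chr7:102482031-102488313. GENCODE marks 16 members as pseudogenes, and 127 have an open reading frame of at least 250 codons. The closest relative by translated sequence was another member for 124 of these 127, with a median identity of 79.6% over the aligned residues to the nearest member and 47.7% to the nearest OR outside the cluster. The other 3, Olfr628, Olfr657 and Olfr658, were 97.5%, 92.2% and 93.5% identical to Olfr243, Olfr504 and Olfr503. The ORs outside the rule thus hold some close relatives of members, and 3 of them had a member as best match. Olfr544 itself was 95.8% identical to Olfr545, the gene next to it.

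The 300 bases before the annotated start of Olfr544, Olfr622 and Olfr669 are shown. Olfr544 and Olfr622 were the members called below with the litter as a block, and Olfr669 had the highest CPM with 100% heptanal. Each was higher in every mouse exposed to 100% heptanal than in every control, as were 17 of the 60 members tested in all. Capitals mark matches, on either strand, to 3 short motifs that were searched: CCCNNGGG, the core of the site bound by the OSN factor Ebf1 (also called Olf1), and TAATGA and TAATTA, letters typical of homeodomain factor sites such as those of Lhx2. The sequences run 5′ to 3′ toward the gene and come from GRCm38.
Olfr544, chr7:102488314-102488613, minus strand: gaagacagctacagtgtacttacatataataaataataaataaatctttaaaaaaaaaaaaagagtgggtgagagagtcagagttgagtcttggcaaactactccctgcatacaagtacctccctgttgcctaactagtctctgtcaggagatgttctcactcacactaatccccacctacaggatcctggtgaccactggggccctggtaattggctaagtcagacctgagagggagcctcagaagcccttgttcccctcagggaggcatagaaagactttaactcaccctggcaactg
Olfr622, chr7:103642703-103643002, minus strand: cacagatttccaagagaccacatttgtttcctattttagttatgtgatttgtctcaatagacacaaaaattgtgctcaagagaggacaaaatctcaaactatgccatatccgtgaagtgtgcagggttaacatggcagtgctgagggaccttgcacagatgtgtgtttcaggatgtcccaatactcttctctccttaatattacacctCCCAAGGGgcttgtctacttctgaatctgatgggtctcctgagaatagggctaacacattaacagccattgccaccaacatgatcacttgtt
Olfr669, chr7:104933940-104934239, plus strand: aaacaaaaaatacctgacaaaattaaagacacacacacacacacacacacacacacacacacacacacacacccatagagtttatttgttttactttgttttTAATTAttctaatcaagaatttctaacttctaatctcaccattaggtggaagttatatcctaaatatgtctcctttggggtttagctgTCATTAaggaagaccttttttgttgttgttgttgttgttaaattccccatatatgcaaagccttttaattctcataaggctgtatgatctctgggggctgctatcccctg
The window of Olfr544 held none of the 3 motifs, that of Olfr622 held 1 match to CCCNNGGG and that of Olfr669 held 1 match each to TAATGA and TAATTA. CCCNNGGG was present in 16.1% of the windows of the 143 members, 12.9% of those of 1091 other ORs and 10.3% of those of 55196 genes of all kinds. TAATGA was present in 21% of the class I windows, 38.8% of those of other ORs and 12.9% of all, and TAATTA in 16.1%, 26.4% and 8.39%. These are descriptions of letters in a fixed window, and the sets of windows were not tested against each other.

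The first question was how many class I ORs the pS6-IP detected. In the controls 39, 87 and 82 of the 143 members had at least 1 count in litters 1, 2 and 3, with 1% heptanal 36, 59 and 87, and with 100% heptanal 68, 97 and 101. Over all 9 mice 118 members were detected, 19 of them in every mouse, and 25 had 0 counts throughout. As a share, between 25.17% and 70.63% of members were detected in a mouse, against 21.63% to 57.38% of the other ORs, and the class I share was the higher one in each of the 9 mice. Detection was lowest in the litter 1 control and 1% heptanal mice, which had the fewest OR counts, as the plot of detection against OR counts shows. The whole library held between 5438503 and 9707581 counts, of which 819 to 6852 lay on class I ORs, and 3 counts, the floor used here, correspond to 0.309 to 0.552 CPM (counts scaled to a library of 1000000). A member at 0 was therefore not detected at this depth, which does not show that its OSNs were missing. Reads carried no molecular identifiers, so floors and intervals cover counting error only.

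**Figure D1:**
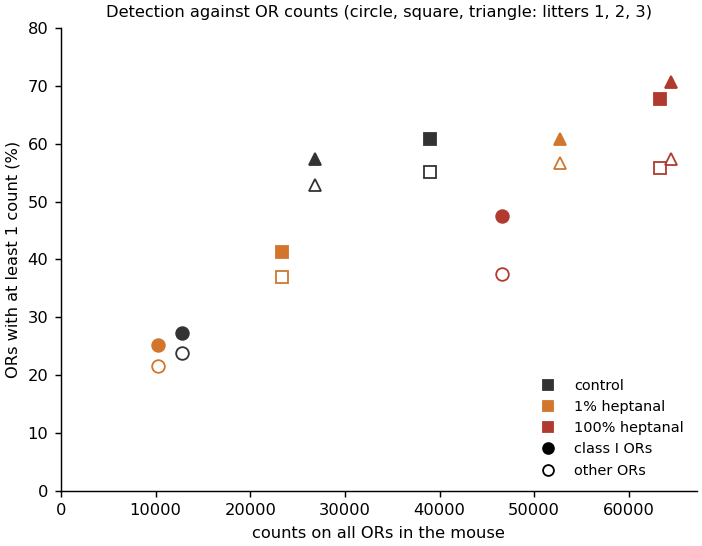
Share of ORs with at least 1 count (y axis, percent) against the counts on all ORs (x axis) in each of the 9 mice, with filled symbols for the 143 class I ORs, open symbols for the 1105 other ORs, colors for groups and symbol shapes for litters. In each mouse the filled symbol lies above the open one, and both are lowest in the litter 1 control and 1% heptanal mice.

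Class I ORs made up a larger part of the OR counts in the mice exposed to 100% heptanal. Their share was 9.49%, 7.745% and 7.781% in the water controls, 8.012%, 6.421% and 5.855% with 1% heptanal, and 10.86%, 10.4% and 10.63% with 100% heptanal. All mice with 100% heptanal thus lay above all controls, and the widest 95% Wilson interval of a mouse was 7.501% to 8.554%. The means were 8.34% ± 1.00, 6.76% ± 1.12 and 10.6% ± 0.23 (SD, n = 3 each). A two-sided exact permutation test of the difference with 100% heptanal gave p = 0.1, the smallest that 3 mice against 3 allow, and 0.15 after adjustment over the 3 comparisons of groups. At 1% heptanal the groups overlapped (exact permutation p = 0.3), although each exposed mouse lay below its own control littermate.

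A single receptor carried much of this shift. Olfr669 held 5.324% to 6.28% of the class I counts in the water controls and 18.02% to 22.68% with 100% heptanal. Without it the class I share was 9.013%, 7.363% and 7.328% in the water controls and 9.085%, 8.508% and 8.423% with 100% heptanal, so the groups overlapped (two-sided exact permutation p = 0.3). Within litters the ratio without Olfr669 was 1.008, 1.156 and 1.149. The share was also taken with each mouse's own most abundant OR of each class left out, so the genes removed differed between mice. The class I OR removed was Olfr550, Olfr653 or Olfr571 in the water controls and Olfr669 in every 100% heptanal mouse. The water control and 100% heptanal mice then did not overlap, at 7.478% to 8.681% and 8.719% to 9.539% (exact permutation p = 0.1). No control lost Olfr669 in this measure, so it does not compare the same genes between the groups. The same measure put the 1% heptanal mice at 5.696% to 6.839%, below all water controls (exact permutation p = 0.1).

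**Figure D2:**
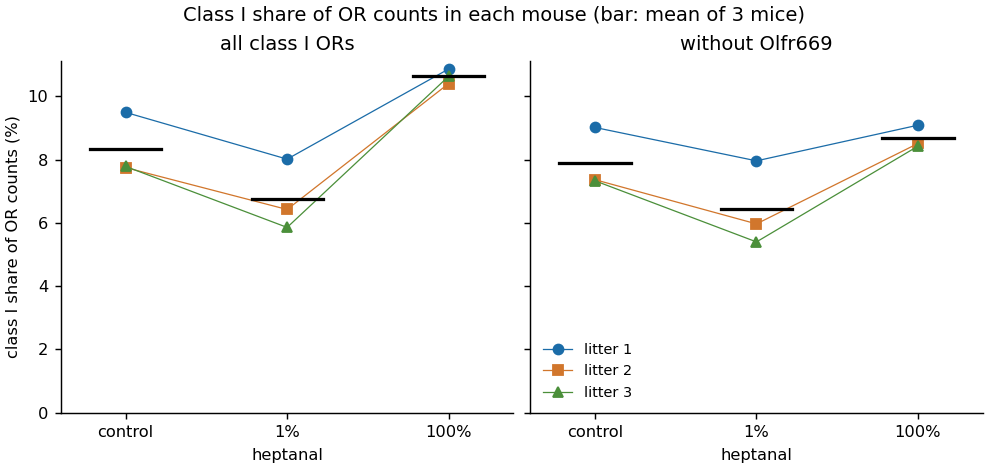
Share of all OR counts that lay on class I ORs (y axis, percent) in each mouse by group (x axis), with lines joining littermates and bars at the mean of 3 mice, for all class I ORs (left) and without Olfr669 (right). The 100% heptanal mice sit at 10.4% to 10.86% on the left, above all controls, and at 8.423% to 9.085% on the right, where they overlap the controls.

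In the pS6-IP as a whole, the counts of mature OSNs were higher with 100% heptanal as well. The summed CPM of 5 mature OSN markers (Omp, Adcy3, Ano2, Cnga2 and Gnal), all present in every mouse, was 4240 to 8710 in water controls, 6150 to 8480 with 1% heptanal and 10600 to 14900 with 100% heptanal, while all ORs took 0.1999% to 0.5491%, 0.1426% to 0.5428% and 0.532% to 0.866% of the counts. In an immunoprecipitate of bulk tissue, more OSNs with phosphorylated S6, more RNA in each of them and a purer pull-down cannot be told apart, and this holds for every level below. Scaled to the 5 markers, class I counts were 0.032 to 0.062 per marker count in water controls, 0.018 to 0.049 with 1% heptanal and 0.049 to 0.074 with 100% heptanal, and the last group was 1.534, 1.267 and 1.188 times its littermate controls. Other markers summed to overlapping ranges in control and 100% heptanal mice for immature OSNs, horizontal basal cells, Bowman gland, microvillous cells, ciliated cells, macrophages and red blood cells. The 4 sustentacular markers lay higher with 100% heptanal (5400 to 7100 CPM against 4190 to 5110) and the 4 globose basal markers lower (57.9 to 63.7 against 80.7 to 115), with none of these 8 genes past the threshold. The part of these differences in the class I values was not tested.

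Of the 143 members, 60 had enough counts to be tested with edgeR's quasi-likelihood test, against 388 of the 1105 other ORs, and 58 more had counts that were too low. None of the 16 pseudogenes was among the 60. The filter was met in some members through the 100% heptanal mice: 22 of the 60, or 36.7%, reached the count minimum in fewer than 3 of the 6 control and 1% heptanal mice, against 27.3% of the other ORs. These 60 are therefore not a sample of all members, and values over them are given as descriptions.

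At 100% heptanal, 51 of the 60 members tested had a log2 fold change above 0 against control, with a median of 1.44 and quartiles of 0.64 and 2.35. Of the other ORs 280 of 388 lay above 0, with a median of 0.86, and the median over all 14930 genes tested was -0.03. With the 2 members that had 0 counts in a whole group set to their bounds, the class I median stayed at 1.44. Among the 38 members that met the count minimum without help from the 100% heptanal mice the median was 1.12, against 0.76 for 282 such other ORs. The gap between the class I and other OR medians was 0.58 over all tested, and within litters 1, 2 and 3, on the log2(CPM + 1) scale, 0.10, 0.74 and 0.43. When the mice were scaled by the ORs themselves or by the 5 OSN markers, the gap was 0.62 and 0.48, but the medians themselves dropped to 0.54 and 0.38 for the members and to -0.08 and -0.10 for the other ORs. The CPM of 17 members, or 28.3% of those tested, were higher in all 3 mice with 100% heptanal than in all 3 controls, where 5.97% of all genes and 18.8% of the other ORs were. For 3 members all 100% heptanal mice were lower, 5% of those tested, against 3.55% of all genes and 1.03% of the other ORs.

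**Figure D3:**
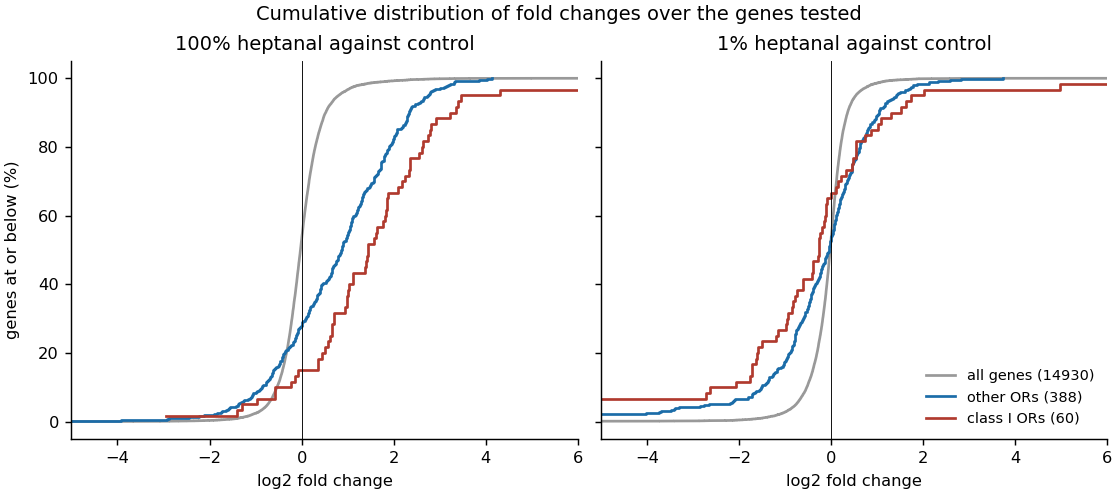
Cumulative share of genes (y axis, percent) at or below each log2 fold change against control (x axis, shown from -5 to 6) for the 60 class I ORs, 388 other ORs and all 14930 genes tested, at 100% heptanal (left) and 1% heptanal (right). On the left the class I curve lies to the right of the other ORs over most of its length, with medians of 1.44 and 0.86. On the right the medians are -0.27 and -0.05.

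Whether single receptors passed the test depended on the fit. With p-values adjusted over all 14930 genes, edgeR's quasi-likelihood test called 0 class I ORs with 100% heptanal (percent of all genes called higher, 0.0134%), although 13 were higher and 3 lower at an unadjusted p under 0.05 (3.01% and 1.17% of all genes), and DESeq2 called 5 higher and 0 lower of the 54 members to which it gave an adjusted p, or 9.26%, where it called 0.451% of all genes and 4.49% of ORs higher and 0.0137% of all genes lower. Adjusted over the 448 ORs tested, 1 was higher, Olfr544, where 0.446% of ORs were called. With the litter as a block, 2 were higher over all genes, Olfr544 and Olfr622, where 0.322% of all genes were called. The same fit called 6 of the 388 other ORs tested higher. A combination chosen after the data were seen, the block with adjustment over the ORs alone, gave 7 members higher. That is 11.7% of those tested, close to the background of 8.93% of all ORs called higher. These 7 were Olfr544, Olfr622, Olfr554, Olfr669, Olfr684, Olfr683 and Olfr598, the last named after its values were seen. Olfr598 is uncertain, since 26.6% of its counts were unique, its protein is 97.5% identical to that of Olfr597 and its 100% heptanal mice, at 0.343, 12.5 and 10.7 CPM, overlapped the controls. No member was called lower in these fits, where 0.223% of ORs were with the block. Both calls over all genes were lost when any single control or 100% heptanal mouse was left out.

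Olfr544 had the lowest p of all class I ORs with 100% heptanal. It had 19, 33 and 25 counts in the water controls, 21, 19 and 70 with 1% heptanal and 247, 194 and 149 with 100% heptanal, in litters 1, 2 and 3. The lowest mouse with 100% heptanal was above the highest of the other 6, and the litter 3 mouse was the high one with 1% heptanal. In CPM these were 3.58 ± 0.93 in water controls, 4.43 ± 2.13 with 1% heptanal and 24.1 ± 6.23 with 100% heptanal (SD, n = 3 each). The log2 fold change with 100% heptanal was 2.75 (SE 0.44) with an adjusted p over all genes of 0.209, and 2.77 (SE 0.43, adjusted p = 0.0432) with the litter block. Scaled by the ORs it was 1.69 and by the 5 OSN markers 1.71, with adjusted p of 0.191 and 0.0782, and with the block 1.67 and 1.76 (adjusted p = 0.0075 and 0.00503). The scaled fits with the block were chosen after the data were seen. With the block the call was lost when any control or any 100% heptanal mouse was left out (adjusted p up to 0.32).

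Because Olfr545 is nearly identical to Olfr544, reads could have passed between them. Of the counts of Olfr544, 83.5% were reads that mapped to 1 place, and these alone were 12, 27 and 20 in water controls, 15, 17 and 60 with 1% heptanal and 208, 166 and 124 with 100% heptanal, the same order of groups. They gave a log2 fold change of 2.89 with 100% heptanal (adjusted p = 0.273), and 2.94 with the block (adjusted p = 0.0468). Olfr545, whose start lies 9.4 kb from that of Olfr544, had too few counts to be tested, with 0, 3 and 3 in water controls, 6, 2 and 11 with 1% heptanal and 14, 77 and 8 with 100% heptanal. The litter 2 mouse held most of its counts with 100% heptanal, where Olfr544 was highest in litter 1.

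The tested members closest to Olfr544 on the chromosome did not all move in its direction. Olfr543, which starts 5.5 kb away and is 59.6% identical in protein, had 30, 8 and 20 counts in the water controls, 16, 8 and 9 with 1% heptanal and 0, 6 and 2 with 100% heptanal, so that each 100% heptanal mouse lay below each control. Its log2 fold change of -2.94 (SE 1.1) had an adjusted p of 1, and 0.417 with the block. With the block it was -3.90 when scaled by the ORs and -3.95 when scaled by the OSN markers, both past the threshold (adjusted p = 0.00404 and 0.0105), in fits that called most of all genes lower. These fits were chosen after the data were seen. On the other side Olfr549, Olfr550 and Olfr552 start 67.8, 89.4 and 115.7 kb away. Olfr549 had 1, 82 and 78 counts in the water controls, 30, 11 and 31 with 1% heptanal and 380, 210 and 218 with 100% heptanal (log2 fold change 2.17, adjusted p = 1). Olfr552 had 39, 35 and 9, then 48, 56 and 54, then 63, 165 and 118 counts in the same order of groups (log2 fold change 1.85, adjusted p = 1). In CPM every 100% heptanal mouse lay above every control for both Olfr549 and Olfr552. Olfr550 is described with the members that were lower.

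Olfr622, near the middle of the cluster at chr7:103638451-103642702, was the other member called with the block. It had 69, 66 and 38 counts in the water controls, 62, 23 and 91 with 1% heptanal and 507, 276 and 248 with 100% heptanal. Control and 1% heptanal mice overlapped, and all 100% heptanal mice were higher. Its CPM were 8.26 ± 3.08, 7.36 ± 2.92 and 41.6 ± 15.1 (SD, n = 3 each), or a log2 fold change of 2.33 (SE 0.46, adjusted p = 0.56) and, with the block, of 2.32 (SE 0.36, adjusted p = 0.0439). Its closest relative, Olfr608, is 81.6% identical in protein, and 96% of its counts were reads that mapped to 1 place. Scaled by the ORs its log2 fold change was 1.21 and by the OSN markers 1.34.

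Olfr669, at chr7:104934240-104940477, had the highest CPM per kb of exon of the tested class I ORs in each group, at 7.08 in water controls, 6.51 with 1% heptanal and 66.3 with 100% heptanal. It had 67, 161 and 131 counts in the water controls, 6, 113 and 255 with 1% heptanal and 912, 1309 and 1554 with 100% heptanal, nearly all of them unique to it. The litter 1 mice were the lowest in each group, and the 100% heptanal mice were far above all others. In CPM it went from 16.5 ± 6.16 in water controls to 155 ± 44 with 100% heptanal (SD, n = 3 each), with 15.2 ± 12.7 at 1%. The log2 fold change was 3.23 (SE 0.88, adjusted p = 0.775) and, with the block, 3.28 (SE 0.56, adjusted p = 0.0647 over all genes and 0.0103 over the ORs).

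Olfr554, 156.4 kb from Olfr544, was the only one of the 60 members tested that was higher in all 3 mice than in all controls at both concentrations. With 1% heptanal this was 1.67% of the members tested, where 2.28% of all genes were. Olfr667 and Olfr672, with too few counts to be tested, were also higher at both. Olfr554 had 14, 14 and 9 counts in the water controls, 24, 13 and 30 with 1% heptanal and 59, 40 and 59 with 100% heptanal. On the CPM scale its means were 1.76 ± 0.55, 2.92 ± 0.64 and 6.36 ± 0.65 (SD, n = 3 each). The log2 fold change was 0.73 at 1% (adjusted p = 1) and 1.85 with 100% heptanal (adjusted p = 0.708, and 0.0416 with the block over the ORs).

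Toward the far end of the cluster, Olfr679, Olfr681, Olfr683 and Olfr684 had few or no counts in most controls and were counted in every mouse with 100% heptanal. They form 2 pairs of closest relatives, Olfr679 and Olfr681 at 97.8% identity and Olfr683 and Olfr684 at 88.4%. Olfr684 had 0 counts in all 3 controls, 0, 24 and 6 with 1% heptanal and 41, 38 and 47 with 100% heptanal, which puts the 100% heptanal group at least 36.6-fold higher against a floor of 3 counts over the control group. It was the only tested OR of either class with 0 counts in the water controls and counts in all 3 mice with 100% heptanal. An OR at 0 in all controls is tested only when its exposed mice carry it past the filter. Olfr667 and Olfr672, with too few counts to be tested, had the same pattern. Their counts with 100% heptanal were 8, 69 and 12, and 3, 4 and 2. Olfr683 had 5, 39 and 5 counts in the water controls, 17, 7 and 21 with 1% heptanal and 126, 142 and 79 with 100% heptanal. Its log2 fold change was 2.64 (adjusted p = 0.91, and 0.0334 with the block over the ORs). Olfr679 had 0, 4 and 0, then 3, 0 and 19, then 48, 17 and 36 counts, and Olfr681 had 2, 0 and 6, then 5, 11 and 2, then 10, 43 and 38. The groups with 100% heptanal and control did not overlap for any of the 4. Only 62.6% to 79.9% of their counts were reads that mapped to 1 place, so the split between these receptors depends on how the other reads were assigned.

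Olfr691 and Olfr559 were higher in all 100% heptanal mice as well. Olfr691 had 25, 31 and 13 counts in the water controls, 55, 11 and 45 with 1% heptanal and 84, 93 and 119 with 100% heptanal (log2 fold change 1.87, adjusted p = 0.911, and 0.0602 with the block over the ORs). Olfr559 had 0, 13 and 3, then 0, 0 and 0, then 54, 40 and 36 counts. With 50.9% of its counts unique and a protein 94.3% identical to that of Olfr33, its level is uncertain.

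**Figure D4:**
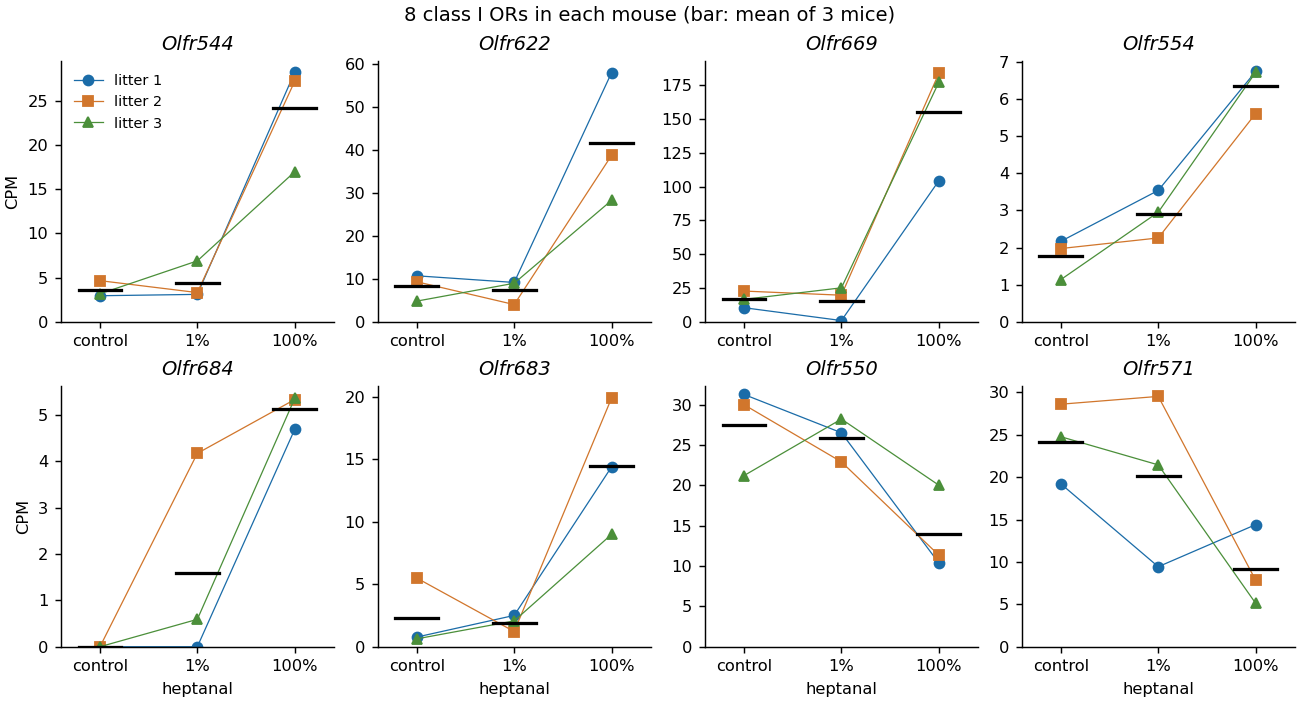
CPM (y axis) of 8 class I ORs in each of the 9 mice by group (x axis), with symbols and lines joining littermates and bars at the mean of 3 mice. The 100% heptanal mice lie above all controls for Olfr544, Olfr622, Olfr669, Olfr554, Olfr684 and Olfr683, and below all controls for Olfr550 and Olfr571.

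A few members had lower values with 100% heptanal, none of them past the threshold without further scaling. Olfr550, among the more abundant class I ORs, had 202, 213 and 168 counts in the water controls, 180, 132 and 287 with 1% heptanal and 91, 81 and 176 with 100% heptanal. In CPM every 100% heptanal mouse was below every control, at 13.9 ± 5.31 against 27.5 ± 5.48 (SD, n = 3 each), or a log2 fold change of -0.98 (SE 0.31, adjusted p = 0.928, and 0.0613 with the block over the ORs). Olfr571 had 124, 203 and 196 counts in the water controls, 64, 170 and 218 with 1% heptanal and 126, 56 and 45 with 100% heptanal, a log2 fold change of -1.40 (SE 0.49, adjusted p = 1). The drop was smallest in litter 1. With Olfr543 these were the 3 members whose groups did not overlap in the lower direction. They are 5% of those tested, near the 3.55% of all genes, with 1.03% of the other ORs. Olfr556 had no counts in any litter 1 mouse and 25 and 28, 22 and 21, and 14 and 8 counts in litters 2 and 3 of the 3 groups (log2 fold change -1.31, adjusted p = 1). When the mice were scaled by the ORs together with the litter block, 6 members (10%) were called lower and 15 (25%) higher, where 57.8% and 0.442% of all genes and 11.2% and 12.3% of ORs were. Scaled by the OSN markers with the block, 4 members (6.67%) were called lower and 9 (15%) higher, where 65% and 0.322% of all genes and 8.26% and 8.93% of ORs were. Olfr543, Olfr550 and Olfr571 were among those called lower in both, fits in which most of all genes tested moved down. Both fits were chosen after the data were seen.

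**Figure D5:**
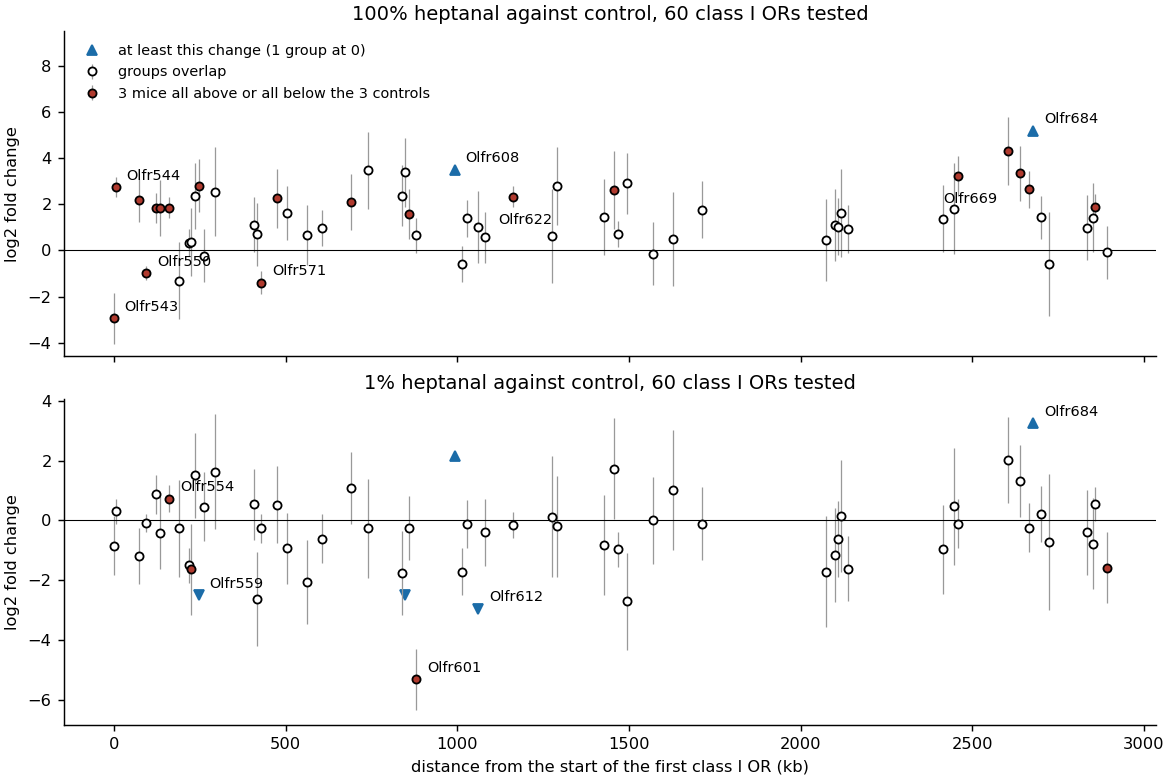
Log2 fold change against control (y axis, bars are SE) of the 60 class I ORs tested along the cluster (x axis, distance in kb from the start of the first class I OR), at 100% heptanal (top) and 1% heptanal (bottom). Filled circles are members whose 3 exposed mice all lie above or all below the 3 controls, open circles are members whose groups overlap, and triangles mark bounds for members with 0 counts in a whole group. Members with higher and lower values are neighbors, as with Olfr544 at 2.75 and Olfr543 at -2.94.

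At 1% heptanal no class I OR was called in either direction by edgeR's quasi-likelihood test over all genes or over the ORs, with or without the block (0% of all genes called in either direction, and 0.223% of ORs higher with the block). At an unadjusted p under 0.05, 1 member was higher and 4 were lower, where 0.335% and 0.462% of all genes were, and DESeq2 called 1 lower (0.0067% of all genes) and 0 higher (0%). Of the 60 tested, 20 had a log2 fold change above 0, with a median of -0.27, against -0.05 for the other ORs and -0.02 for all genes. All 3 exposed mice lay above all controls for 1 member and below them for 3, which is 5% of those tested, where 1.64% of all genes and 2.06% of the other ORs were below.

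Olfr601 had the lowest p of the members with 1% heptanal. It had 42, 49 and 24 counts in the water controls, 0, 0 and 3 with 1% heptanal and 33, 106 and 64 with 100% heptanal, and 97.5% of its counts were unique. Every 1% heptanal mouse was below every other mouse. The log2 fold change with 1% heptanal was -5.32 (adjusted p = 1 over all genes and 0.263 over the ORs, and 1 and 0.0797 with the block), while DESeq2 gave an adjusted p of 0.025. Olfr557 had 28, 94 and 63 counts in the water controls, 13, 9 and 55 with 1% heptanal and 122, 62 and 86 with 100% heptanal, a log2 fold change of -1.50 at 1% (adjusted p = 1). Olfr559, Olfr612 and Olfr598 had 0 counts in all 3 mice with 1% heptanal. Their controls summed to 16, 22 and 16 counts, most of them from the litter 2 mouse, which puts the controls at least 5.64-, 7.75- and 5.64-fold higher against the floor of 3 counts over the group. Olfr612 and Olfr598 share most of their reads with other genes, with 28.8% and 26.6% of their counts unique, and the protein of Olfr612 is 98.1% identical to that of Olfr611.

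Between the concentrations, 53 of the 60 members had a higher fitted value at 100% than with 1% heptanal, with a median log2 difference of 1.72 against 1.06 for the other ORs and 0.01 for all genes. The 3 mice with 100% heptanal all lay above the 3 at 1% for 23 members, or 38.3%, where 4.73% of all genes and 17.5% of the other ORs did. They all lay below for 2 members, Olfr543 and Olfr550, or 3.33%, where 4.15% of all genes and 0% of the other ORs did. EdgeR's quasi-likelihood test called 0 over all genes, where 0.0134% of all genes were called higher, with 16 higher and 2 lower at an unadjusted p under 0.05 (2.1% and 1.17% of all genes), and DESeq2 called 6 higher (0.168% of all genes and 2.68% of ORs) and 0 lower. With the block 0 were called over all genes (0.0804% of all genes higher) and 12 over the ORs, 20% of those tested, where 14.3% of all ORs were called higher. This comparison shares its 100% heptanal mice with the one against control.

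Some members were named for ligands or sites known outside this study. Of these, Olfr544, Olfr691 and the untested Olfr545, described above, were higher in all 100% heptanal mice than in all controls. The others are those known for short-chain fatty acids or from the vomeronasal organ, and Olfr690. Their values with 100% heptanal overlapped the controls. Olfr78 had 34, 53 and 25 counts in the water controls, 54, 0 and 139 with 1% heptanal and 23, 57 and 26 with 100% heptanal (log2 fold change -0.23 at 100%, adjusted p = 1). Olfr558, its closest relative at 59.5% identity, had 18, 22 and 21, then 0, 0 and 26, then 2, 64 and 16 counts. In CPM all of its 1% heptanal mice lay below all controls, and with 100% heptanal its log2 fold change was 0.36 (adjusted p = 1) but -0.39 with the block. Olfr692 had 77, 32 and 42 counts in the water controls, 0, 21 and 36 with 1% heptanal and 11, 38 and 123 with 100% heptanal (log2 fold change -0.08, adjusted p = 1), and its 1% heptanal mice also lay below all controls in CPM. Olfr690, which lies beside Olfr691 and is 73.4% identical to it, had 0, 34 and 39, then 0, 32 and 3, then 39, 90 and 80 counts (log2 fold change 1.42, adjusted p = 1). The estimates were imprecise, with SE of 1.15, 1.46, 1.14 and 1.5 on the log2 scale for Olfr78, Olfr558, Olfr692 and Olfr690.

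Levels between receptors were compared per kb of exon in GENCODE, a rough scale because the libraries were primed from the poly(A) tail and the gene models used by the authors for ORs were not used here. With 100% heptanal, Olfr669 stood at 66.3 CPM per kb, Olfr649 at 20.3, Olfr599 at 19.7 and Olfr622 at 18.5. Below these came Olfr549 at 17.2, Olfr610 at 10.1 and Olfr615 at 9.5. In the water controls the order differed, with Olfr669 at 7.08, Olfr599 at 6.61, Olfr692 at 6.44 and Olfr615 at 6.43 CPM per kb. Next were Olfr649 at 5.93, Olfr550 at 5.55, Olfr571 at 4.69 and Olfr653 at 3.92, then Olfr610 at 3.87, Olfr549 at 3.8 and Olfr622 at 3.68. Olfr544 stood at 1.1 in water controls and 7.38 with 100% heptanal.

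Several abundant members also differed between litters. Olfr615 had 175, 245 and 42 counts in the water controls, 86, 214 and 16 with 1% heptanal and 562, 208 and 48 with 100% heptanal, lowest in litter 3 every time. Olfr653 had 0, 278 and 135, then 0, 49 and 169, then 104, 521 and 323 counts, so it was found in litter 1 only with 100% heptanal. Olfr599 had 10, 218 and 87, then 5, 115 and 156, then 277, 457 and 294 counts, and its adjusted p over the ORs went from 0.606 to 0.0668 with the block. In litter 1, 20 of the 60 tested members had 0 counts in both the control and the 1% heptanal mouse, and 13 of these 20 had counts in the 100% heptanal littermate. In litters 2 and 3 the same was true of 3 and 0 members. The other ORs did likewise, with 36.3% of those tested at 0 in both litter 1 mice against 33.3% of the members. Litter 1 had the fewest OR counts in each group.

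The ORs whose levels followed Olfr544 most closely over the 9 mice belonged to both classes. By Pearson's r of log2(CPM + 1) the nearest of all tested ORs were Olfr332 (0.97), Olfr319 (0.96), Olfr30 (0.94) and Olfr1362 (0.93) outside the class I cluster, then Olfr622 (0.93). Among members the next were Olfr679 (0.93), Olfr683 (0.92), Olfr559 (0.91) and Olfr554 (0.87). The 9 points share the 3 groups and the 3 litters, so the values describe a likeness of pattern and carry no test.

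Genes that work downstream of ORs were compared from lists of 13 transduction and mature OSN genes and 13 genes of OR trafficking, zone and OR choice. All 13 transduction genes had a log2 fold change above 0 with 100% heptanal, with a median of 0.66, and 0 passed the threshold over all genes without the block. With the block 3 rose, where 0.322% of all genes were called higher. These were Omp, the marker of mature OSNs, Gng13, a G protein gamma subunit, and Stoml3, a stomatin-like protein of OSN cilia. In the other list 7 of 13 lay above 0, with a median of 0.17, and 0 passed with or without the block. There Bcl11b was 107, 103 and 81.1 CPM in water controls and 119, 83.3 and 78.5 CPM with 100% heptanal. The dorsal OE marker Nqo1, an oxidoreductase, was 83.2, 113 and 107 CPM in water controls, 48.7, 82.5 and 111 with 1% heptanal and 194, 255 and 208 with 100% heptanal, with a log2 fold change of 1.12 (adjusted p = 0.735, and 0.0696 with the block). Acsm4, another gene of dorsal OSNs, was 462, 340 and 269 CPM in water controls and 383, 306 and 372 with 100% heptanal.

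Of 14 genes induced by neuronal activity, 13 could be tested, and 1, Fosb, rose with 100% heptanal without the block, while 5 rose with it. Of all genes, 0.0134% and 0.322% were called higher in these fits. Fosb, a subunit of the AP-1 factor, was 3.87, 2.4 and 1.77 CPM in water controls, 6.49, 6.6 and 8.86 with 1% heptanal and 88.9, 95.6 and 67.1 with 100% heptanal. At 1% heptanal 0 of the 13 passed, the same as for the class I ORs. Of 21 other genes that lie in or next to the class I cluster, 10 could be tested, and 0 passed at either concentration, with 3 of 10 above 0 with 100% heptanal and a median log2 fold change of -0.16. Among them are the beta-globin genes, which interrupt the cluster: Hbb-bs was 3100, 3570 and 551 CPM in water controls and 1850, 1570 and 313 with 100% heptanal.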

How the data were processed

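Bowtie alignments to mm10 were counted on annotated genes by the authors with bedtools, with OR gene models from earlier work in place of the annotated ones, and each mouse has 1 deposited table of 21 columns without a header. The 2nd column holds whole counts of reads mapped to 1 place, and the deposited estimated counts of the last column add reads mapped to several places by a rescue scheme. Estimated counts were rounded and fitted with edgeR 4.0.16 (filterByExpr with a minimum count of 10, TMM, glmQLFit, glmQLFTest) in R 4.3.3, all 9 mice in 1 fit of 3 groups without a block. The authors used edgeR as well, with a model not given in the sources used here. Benjamini-Hochberg adjustment ran over all 14930 genes tested, with a threshold of 0.05. CPM are TMM-normalized. Library intervals cover counting error, and totals were 5438503 to 9707581. Mice of 1 replicate number were littermates and of 1 age. Their deviations from group means correlated at 0.524 on average over 9 pairs of all genes (lowest 0.146). Over the ORs alone the likeness of littermates was weaker, at 0.318 on average (lowest -0.048), against -0.153 for pairs from different litters. The litter block is given where it changes a call. Mice of a group differed by more than sampling noise (chi-square per degree of freedom at least 31.7). Beside these, 23 planned settings, DESeq2 1.42.0 among them, and 14 chosen after seeing the data were run. The settings chosen afterwards included the block with either scaling, with unique reads, with adjustment over the ORs and with 1 mouse left out. Named members were the lowest p, the most abundant, those with known ligands, the neighbors of Olfr544 and those most like it. The name rule uses no measured value, but the choice of this receptor class, its named members and the gene lists was made with earlier results of these data known. Promoter windows and exon lengths came from GRCm38 and GENCODE, and proteins were compared with blastp 2.17.0.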

Additional observations from a re-analysis of the deposited data

How the results depend on the processing

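Against a main count of 0 class I ORs called higher with 100% heptanal, the replicate block alone gave 2, the block with unique reads 2, DESeq2 5, DESeq2 with the block 10, a likelihood ratio test with the block 14, the block with TMM over ORs 15, the block with scaling by the 5 OSN markers 9, adjustment over ORs 1 and both together 7. In these fits over all genes the share of all ORs called higher was 4.49% with DESeq2, 13.4% with DESeq2 and the block, 13.6% by likelihood ratio, 12.3% and 8.93% under the 2 scalings with the block and 1.94% with unique reads and the block, against 9.26%, 19.2%, 23.3%, 25%, 15% and 3.7% of the members. Leaving out 1 mouse in turn gave 0 without the block and 0 to 3 with it. Members called lower there were 6 with the block and TMM over ORs and 4 with the block and OSN scaling. With 1% heptanal 1 member was called lower in each of 4 settings (DESeq2 without and with the block, the likelihood ratio test, and the block plus TMM over ORs). Between the concentrations the numbers called higher were 6 (DESeq2), 15 (DESeq2 with the block), 15 (likelihood ratio test), 19 (block and TMM over ORs), 16 (block and OSN scaling), 12 (block, over ORs) and 0 to 2 when 1 mouse was left out with the block, and those called lower were 4 and 2 with the block under the 2 scalings, where 66.4% and 44.3% of all genes were called lower. The shares of all ORs called higher there were 2.68%, 15.2%, 16.5%, 16.7%, 12.9% and 14.3%, in the order given. The member called lower with 1% heptanal was Olfr601 each time, beside at most 1.34% of ORs. Olfr544 had a log2 fold change of 2.75 with DESeq2 and over ORs, 2.77 with the block (also with DESeq2, the likelihood ratio test and over ORs), 2.94 with the block and unique reads, 1.67 and 1.76 with the block under the 2 scalings and 2.44 to 3.11 when 1 mouse was left out with the block, where it was past the threshold without 1% heptanal replicate 1, 2 or 3 (2.74, 2.77 and 2.73). The gap between the class I and other OR medians was 0.43 to 0.83 in the settings tried, except 0.96 with the block and without 100% heptanal replicate 1. Leaving out 1 mouse moved the class I share over control to 0.736 to 0.871 with 1% heptanal. The ratio with 100% heptanal was 1.15 without each mouse's own most abundant OR of each class and 1.1 without Olfr669. With at least 30 counts in a mouse 58 members were detected.

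Of the 26 named members tested, 20 kept their direction with 100% heptanal in every setting. Log2 fold changes that turned were, under TMM over ORs, OSN scaling, and each of these with the block, -0.56, -0.62, -0.68 and -0.58 for Olfr557, -0.97, -0.86, -1.41 and -1.37 for Olfr558, -0.56, -0.38, -0.54 and -0.50 for Olfr601, and -0.47, -0.31, -0.68 and -0.57 for Olfr615. Olfr558 was also -0.39 with the block (the same over ORs), -0.64 with DESeq2 and the block, -0.59 in the likelihood ratio test and, from unique reads with the block, -0.36. Leaving out 1 mouse without the block gave -1.46 to 0.92 for Olfr558, with the lowest value without 100% heptanal replicate 2, -0.37 for Olfr615 without 100% heptanal replicate 1, -1.14 to 0.48 for Olfr692 (0.42 and 0.07 without 100% heptanal replicates 1 and 2) and -0.91 to 0.10 for Olfr78 (0.05 and 0.00 without 100% heptanal replicates 1 and 3). With the block the turned values were -0.17 and -0.03 for Olfr557, -2.82, -1.36, -1.17, -0.69, -0.50 and -0.20 for Olfr558, -0.04 for Olfr601, -0.19 for Olfr615, 1.10 and 0.20 for Olfr692 and 0.32, 0.10 and 0.09 for Olfr78. The cause was not tested. The 3 mice per group limited the precision of each value, and ORs took 0.1426% to 0.866% of the counts of a library.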
